A study of Mus musculus with 8 samples.

Results

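Hr, which encodes the nuclear corepressor hairless, was examined together with 5 genes of thyroid hormone action in mouse hepatocytes with and without metformin. The other genes were Thra and Thrb, Dio1, Thrsp and Klf9. The members were chosen by gene symbol, and all deposited probes annotated to them were taken. This gave 8 of the 16304 deposited probes and 6 of 10944 genes. Hr and Dio1 had 2 probes each and the other members 1 each. The choice was made with the difference between metformin and control arrays in view, so the values of the members in that contrast are given as a description, without p-values.

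The cells were Primary Mouse Hepatocytes from male C57Bl6/J mice, isolated from liver with collagenase. Control cells filled 4 wells, and another 4 received metformin, a glucose-lowering biguanide drug, at 500 µM, and the titles of both groups give 24 h. No vehicle and no animal of origin is named for any well, so a p-value here speaks to the spread among arrays alone, and that spread may be technical. Total RNA was read on an Illumina bead array, on which each probe gives the brightness of 1 transcript sequence on a log2 scale.

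Thyroid hormone reaches its nuclear receptors, the products of Thra and Thrb, as triiodothyronine, which the deiodinase encoded by Dio1 can form from thyroxine. The receptors sit on DNA with retinoid X receptors. Without hormone they recruit corepressors and histone deacetylases, and with hormone they recruit coactivators. The product of Thrb is the main receptor of liver, and Dio1, Thrsp and Klf9 are known targets of the hormone. Hairless binds thyroid hormone receptors, the vitamin D receptor and ROR receptors as a corepressor. It is best known from skin and brain, and in rat brain its gene is induced by thyroid hormone.

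Promoter sequences of 4 of the 6 genes, Thrb, Dio1, Thrsp and Klf9, were taken from RefSeq on build GRCm38.p6, as the 250 bases before each annotated start. Thrb had 2 such windows. They were searched on both strands for AGGTCA, the core letters that thyroid hormone receptors and several other nuclear receptors bind, and for the direct repeat AGGTCANNNNAGGTCA, which contains the core motif at both ends. AGGTCA was present in 1 of the 5 windows, the upstream Thrb window, on the gene's own strand at 184 to 179 bases before the start. Of all 32851 promoter windows of this length, 14.0% contained AGGTCA. The direct repeat was in 0 of the 5 windows and in 0.0152% of all windows. The Thrb window (chr14:17660710-17660959, plus strand), with the match in capitals, and the Klf9 window (chr19:23140976-23141225, plus strand), the member promoter in the table whose gene had non-overlapping groups, read 5′ to 3′ as follows. A match is a string of letters and not a measured binding site.
Thrb: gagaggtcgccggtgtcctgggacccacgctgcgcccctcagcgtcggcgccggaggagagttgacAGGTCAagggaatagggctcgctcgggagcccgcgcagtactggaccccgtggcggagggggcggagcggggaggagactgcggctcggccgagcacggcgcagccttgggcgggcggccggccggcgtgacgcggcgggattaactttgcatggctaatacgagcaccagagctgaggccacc
Klf9: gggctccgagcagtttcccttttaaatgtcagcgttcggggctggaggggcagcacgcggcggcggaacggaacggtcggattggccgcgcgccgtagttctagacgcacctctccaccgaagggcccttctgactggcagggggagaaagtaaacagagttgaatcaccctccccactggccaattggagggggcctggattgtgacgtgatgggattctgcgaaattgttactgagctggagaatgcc

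The deposited values ran from 4.16 to 14.41 log2 units, and the lowest 25% of probes had means up to 4.90. The array medians lay between 6.477 and 6.478. Without detection values, the background under a dim probe is not known, and the change of such a probe can be understated. Of the hepatocyte markers, Trf (14.22 log2 units in control), Ttr (13.64), Apoa1 (12.24) and Hnf4a (10.07) were bright. The probes of Alb (5.65) and Fgb (4.84) were dim, although both genes are abundant in hepatocytes.

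Hr was the member with the largest difference between the groups. Its brighter probe read 6.46, 6.17, 5.77 and 6.17 log2 units in control replicates 1 to 4, and 7.79, 9.05, 8.70 and 8.54 in metformin replicates 1 to 4. Every metformin array lay above every control array, with a gap of 1.33 log2 units between the nearest arrays, and metformin replicate 1 was the lowest of its group. The means were 6.14 ± 0.29 in control and 8.52 ± 0.53 in metformin wells (SD, n = 4), a difference of 2.38 ± 0.25 log2 units (SE), or 5.19-fold. This was the second highest of the 16304 differences, at rank 2.

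The dimmer Hr probe gave the same direction at a smaller size. It read 4.45, 4.31, 4.58 and 4.50 in the control arrays, near the lower end of the scale, and 5.37, 6.14, 5.65 and 5.75 in the metformin arrays. The groups did not overlap, and metformin replicates 1 and 2 were again the lowest and the highest. The difference was 1.27 ± 0.16 log2 units (2.404-fold), at rank 48. The control arrays were ordered differently by the probes, since control replicate 3 was the lowest with the brighter probe and the highest with the dimmer one. Within an array the brighter probe exceeded the dimmer by 1.19 to 2.01 log2 units in control and by 2.42 to 3.05 in metformin wells.

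The receptor probes were dim in both groups. Thra read 4.81, 5.07, 4.69 and 4.57 in control and 5.01, 4.38, 4.81 and 4.81 in metformin arrays. The groups overlapped, with means of 4.79 ± 0.22 and 4.75 ± 0.27 (SD, n = 4) and a difference of -0.03 ± 0.17 log2 units (SE). Thrb read 4.92, 4.33, 5.19 and 4.61 in control and 4.33, 4.34, 4.28 and 4.55 in metformin arrays. Control replicates 1, 3 and 4 lay above all metformin arrays, but control replicate 2 lay among them. The means were 4.76 ± 0.37 and 4.38 ± 0.12 log2 units, and the difference was -0.39 ± 0.18. The metformin arrays of Thrb, at 4.28 to 4.55, lay close to 4.16, the lowest value on any array.

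Dio1, the deiodinase, was also dim. Its brighter probe read 5.51, 4.56, 5.15 and 4.54 in control and 5.06, 5.13, 5.32 and 4.30 in metformin arrays. These groups overlapped widely, with a difference of 0.01 ± 0.27 log2 units. The dimmer probe read 4.62, 4.40, 5.26 and 4.43 in control and 4.59, 4.37, 4.27 and 4.31 in metformin arrays, a difference of -0.29 ± 0.19. Here control replicate 3 alone stood high, and the difference was -0.10 without it.

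The other target genes differed less than Hr. Thrsp, which encodes the Spot14 protein of lipogenic tissues, read 5.61, 6.57, 6.40 and 5.50 in control and 6.60, 5.81, 6.44 and 5.78 in metformin arrays. Each group held a pair of high and a pair of low arrays, and the means of 6.02 ± 0.55 and 6.16 ± 0.42 (SD, n = 4) differed by 0.14 ± 0.29 log2 units (SE). Klf9, a Kruppel-like transcription factor that thyroid hormone and glucocorticoids induce, read 9.12, 8.81, 8.70 and 8.68 in control and 9.21, 9.22, 9.33 and 9.13 in metformin arrays. The groups did not overlap, but the nearest were only 0.017 log2 units apart, because control replicate 1 was close to the metformin level. The means were 8.83 ± 0.20 and 9.22 ± 0.079, a difference of 0.40 ± 0.13 log2 units or 1.32-fold. Without control replicate 1 the difference was 0.49.

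**Figure D1:**
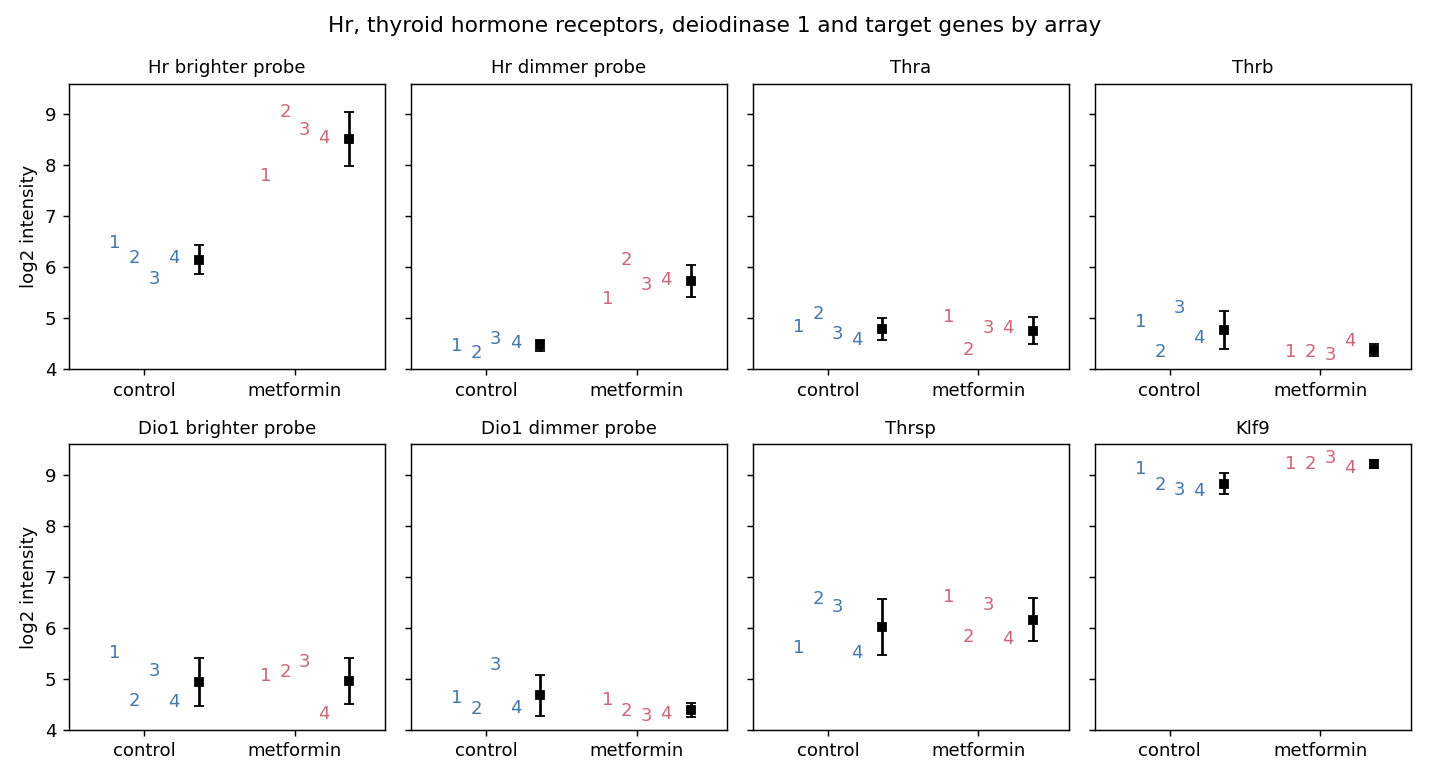
Log2 intensity (vertical axis) of the 8 probes in control (blue) and metformin (red) wells. Numerals mark the replicate at its value, and black squares with bars give the mean and SD of 4 arrays. Both Hr probes separate widely and Klf9 by 0.017 log2 units, while the Thra, Thrb, Dio1 and Thrsp groups overlap.

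Of the 8 member probes, 2 passed an adjusted p under 0.05 in limma over all probes, both of them Hr, where 5.64% of all probes passed. The groups did not overlap for 3 of the 8, where 14.6% of all probes had groups that did not overlap. Because the members were chosen with this contrast in view, nothing is read from these counts. Klf9, not past the threshold in the main fit, passed with array weights and without control replicate 1, and in no other alternative. Over all probes, array weights called 802 higher and 862 lower, and the fit without control replicate 1 called 521 and 565. Nothing is read from these calls of Klf9 either. By same-numbered wells, the brighter Hr probe was higher with metformin in 4 of 4 pairs, by 1.33 to 2.93 log2 units. The dimmer Hr probe was higher in 4 of 4, by 0.93 to 1.82, and Klf9 in 4 of 4, by 0.09 to 0.63. Since the groups of these probes did not overlap, any pairing gives 4 of 4, and the count adds no support. Thrsp was higher in 3 of 4 pairs, with differences from -0.76 to 0.99, and Thra in 3 of 4, from -0.70 to 0.25. The brighter Dio1 probe was higher in 2 of 4, from -0.44 to 0.57. Thrb was lower in 3 of 4 pairs, from -0.91 to 0.01, and the dimmer Dio1 probe in 4 of 4, from -0.99 to -0.03.

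Other genes of the pathway were taken from 7 lists, which share 3 of the measured genes. Of 70 distinct genes measured, 2 rose and 1 fell in limma at an adjusted p under 0.05, or 4.29%, where 5.94% of the 10944 genes passed. Their median change was 0.02 log2 units, beside 0.01 over all genes. At an unadjusted p under 0.05 limma had 12 of the 70, where 2573 of the 10944 genes had one. The unadjusted counts of lists and markers below are read beside that share. With the replicate number as a block, 2 of the 70 rose and 1 fell as well, but only Tsc22d3 was called by both fits. Over all 16304 probes the block fit called 562 higher and 544 lower. Calls of the block fit alone are named below.

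Among genes of thyroid hormone transport and metabolism, limma called 0 of 12 measured, and 0 had an unadjusted p under 0.05 (median change -0.01). The smallest p belonged to Slc7a5, a subunit of an amino acid transporter that also carries thyroid hormone, at -0.31 ± 0.20 log2 units (limma adjusted p = 0.383). Next was Dio3, the deiodinase that inactivates the hormone, at 0.23 ± 0.15 at a dim probe (limma adjusted p = 0.414). The groups overlapped for both genes.

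Of 18 receptor partners and coregulators, 0 rose and 1 fell, with a median change of -0.13, beside 2.96% of all genes that fell. The gene that fell was Hdac1, a histone deacetylase of corepressor complexes. It read 9.09, 9.22, 9.10 and 9.23 log2 units in control and 8.92, 8.31, 8.46 and 8.63 in metformin arrays, without overlap. The change was -0.58 ± 0.14 (limma adjusted p = 0.0454, or 0.0579 with the replicate block). Hdac1 passed in 1 of the 8 fits that left out an array, the one without metformin replicate 1, and over all alternatives its adjusted p was 0.0196 to 0.134. In the list 3 genes had an unadjusted p under 0.05 in limma, and the other two, not past the threshold, encode retinoid X receptors, the partners of the thyroid hormone receptors. Rxrg had a change of 0.58 ± 0.17 log2 units (limma adjusted p = 0.0721) and Rxra one of 0.46 ± 0.15 (limma adjusted p = 0.0945). The remaining retinoid X receptor gene, Rxrb, went the other way, at -0.21 ± 0.12 (limma adjusted p = 0.325), and its other probe gave -0.05.

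Of 10 hepatic thyroid hormone response genes other than the members, 1 rose and 0 fell, with a median of -0.11, beside 2.98% of all genes that rose. This was Srebf2, the transcription factor of cholesterol synthesis genes. It read 7.72, 7.65, 7.59 and 7.73 log2 units in control and 8.22, 8.13, 8.33 and 8.06 in metformin arrays. The groups lay apart, with a change of 0.51 ± 0.11 (limma adjusted p = 0.0305, or 0.0543 with the replicate block). Srebf2 passed in 2 of the 8 fits without an array, when control replicate 1 or metformin replicate 4 was dropped, and its adjusted p was 0.0177 to 0.0985 over the alternatives. Without control replicate 1 the list had 2 genes past the threshold, the other being G6pc. At the dim G6pc probe that array read 5.32, above the metformin arrays at 4.72 to 5.13, while the other controls read 4.34 to 4.37. With all arrays G6pc had a change of 0.37 ± 0.22 (limma adjusted p = 0.358). At an unadjusted p under 0.05 limma had 2 genes of the list, Srebf2 and Scarb1, which encodes an HDL receptor and had a change of -0.48 ± 0.16 log2 units (limma adjusted p = 0.0992).

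The list of lipogenic genes, with the Thrsp paralog Mid1ip1, held 0 calls by limma in 10 members, with 1 at an unadjusted p under 0.05 (median -0.06). This was Scd1, stearoyl-CoA desaturase, at 0.80 ± 0.26 log2 units (limma adjusted p = 0.10, or 0.0188 when the replicate number was a block). Elovl6, a fatty acid elongase, had a change of -0.44 ± 0.23 (limma adjusted p = 0.292). The changes of the list ran from -0.44 to 0.80, with 4 members higher and 6 lower, around the 0.14 of Thrsp.

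Hairless belongs by sequence to a family of JmjC proteins with the histone demethylases Kdm3a and Kdm3b and with Jmjd1c. Kdm3b is not analysed here. Limma called 0 of the 2 measured relatives, with 1 at an unadjusted p under 0.05. Kdm3a read 8.19, 8.16, 8.17 and 8.64 log2 units in control and 8.64, 8.69, 8.75 and 8.65 in metformin arrays. Control replicate 4 alone sat at the metformin level, and the change was 0.39 ± 0.14 (limma adjusted p = 0.121). Jmjd1c had a change of 0.07 ± 0.19 (limma adjusted p = 0.872), which went to -0.13 without metformin replicate 3. These differences were not tested against that of Hr.

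Among 13 Kruppel-like factors other than Klf9, limma called 0, with 3 at an unadjusted p under 0.05 (median 0.10, from -0.90 to 0.69). Klf5, a factor of proliferating epithelia, had the smallest p, at -0.90 ± 0.27 log2 units (limma adjusted p = 0.0768, or 0.0154 when the number was a block). Klf2, known from endothelium, had a change of 0.69 ± 0.22 at a dim probe (limma adjusted p = 0.0919). Klf9, at 0.40, lay between them.

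Klf9 is also a glucocorticoid target. Of 8 other glucocorticoid-linked genes, which included the receptor gene Nr3c1, 1 rose and 0 fell, beside 2.98% of all genes that rose. The median change was 0.28, beside 0.01 over all genes, and 2 had an unadjusted p under 0.05 in limma. The gene that rose was Tsc22d3, which encodes the glucocorticoid-induced leucine zipper. It read 7.95, 7.13, 7.51 and 7.41 log2 units in control and 8.18, 8.26, 8.51 and 8.09 in metformin arrays, without overlap. The change was 0.76 ± 0.18 (limma adjusted p = 0.0399). Its other probe gave 0.11, and Tsc22d3 passed in 1 of the 8 fits without an array, that without control replicate 1, with an adjusted p of 0.0159 to 0.122 over the alternatives.

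**Figure D2:**
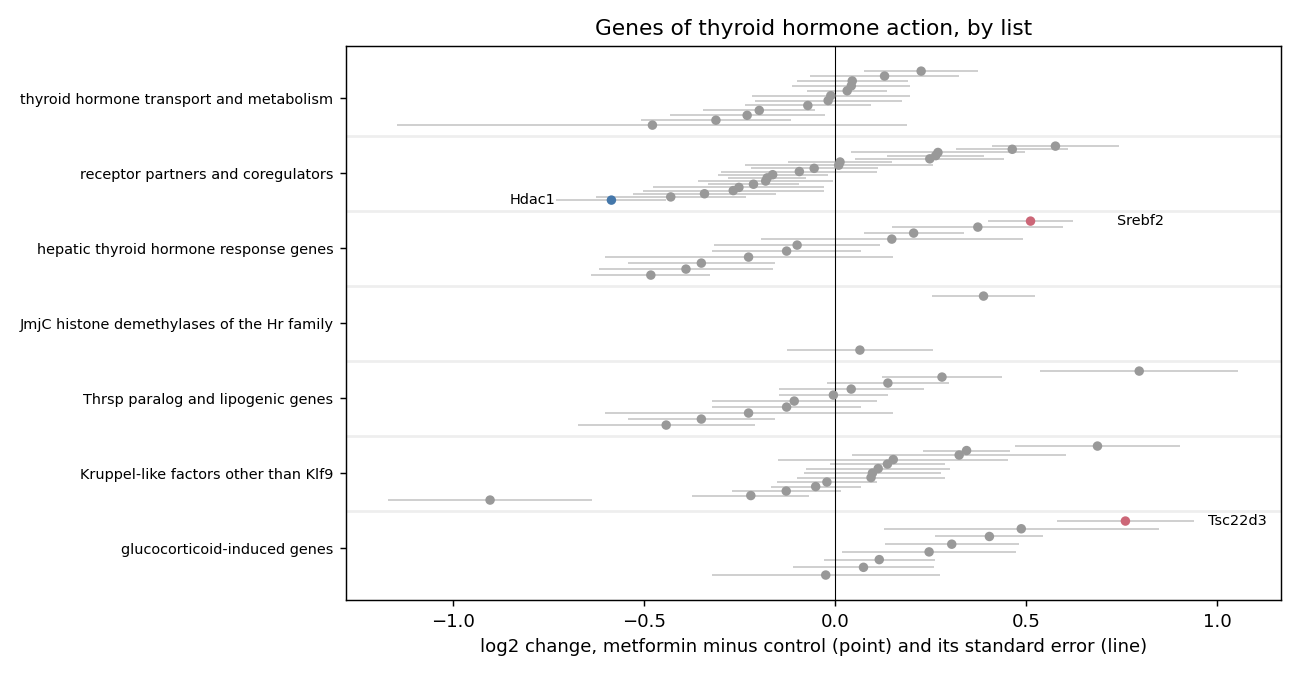
Log2 change, metformin minus control (horizontal axis, points) with its SE (lines), for the measured genes of the 7 lists, sorted within each list. Coloured and named are Hdac1, which fell, and Srebf2 and Tsc22d3, which rose at an adjusted p under 0.05, and the other points did not pass.

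The protein-coding genes up to 3 places to either side of each member in the RefSeq table of GRCm38.p6 were looked up, 36 in all, of which 25 were measured. This comparison was made with the rise of Nudt18 known. In limma 1 of the 25 rose and 0 fell, where 2.98% of all genes rose, and the other 24 had changes from -0.59 to 0.58 log2 units. The gene that rose was Nudt18, a Nudix hydrolase that in human cells cleans oxidised nucleotides, which is the next protein-coding gene to Hr on chromosome 14. It read 9.40, 9.35, 9.99 and 9.45 log2 units in control and 10.66, 11.31, 11.44 and 11.13 in metformin arrays. The groups did not overlap, and metformin replicate 1 was the lowest of its group, as with Hr. The means were 9.55 ± 0.30 and 11.13 ± 0.34 (SD, n = 4), a change of 1.59 ± 0.20 (SE) with limma adjusted p = 0.00869 (0.00135 to 0.0333 over the alternatives).

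The other measured genes around Hr differed less. Reep4, on the other side of Hr, had a change of 0.07 ± 0.17 log2 units (limma adjusted p = 0.850). Sftpc and Dmtn, each 3 places away and near the lower end of the scale, had changes of 0.44 ± 0.15 and 0.49 ± 0.19 (limma adjusted p = 0.109 and 0.160). The other Dmtn probe gave 0.12. Lgi3 and Fam160b2, 2 places away, are not analysed here. Among neighbours of the receptors, both REV-ERB genes, which encode heme-binding repressors of the circadian clock, were next to or near a receptor gene. Nr1d1, whose end overlaps Thra on the opposite strand, had a change of -0.59 ± 0.16 (limma adjusted p = 0.0652), while its other probe gave 0.09. Nr1d2, near Thrb, had one of 0.58 ± 0.19 (limma adjusted p = 0.0981), and its other probe gave 0.25.

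**Figure D3:**
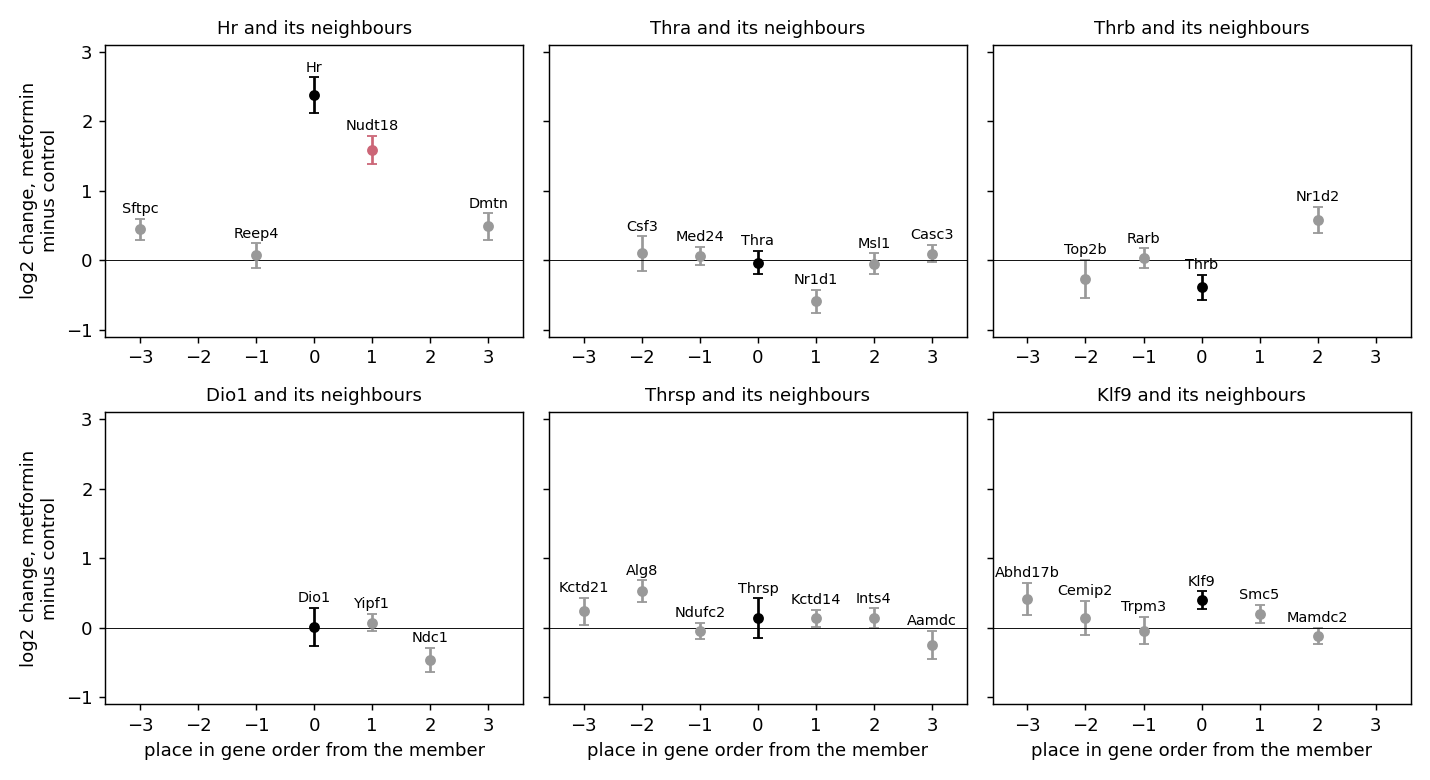
Log2 change, metformin minus control (vertical axis, with SE bars), of each member (black, place 0, brighter probe) and of the measured protein-coding genes up to 3 places away in RefSeq order (horizontal axis). Nudt18 (red), at 1.59 beside Hr at 2.38, was the neighbour that passed an adjusted p under 0.05, and empty places are genes not analysed here.

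The genes with the pattern most like Hr were found over the 8 arrays, as the mean absolute difference from the brighter Hr probe after each probe's own mean was subtracted. The median of this distance over the other genes was 1.19 log2 units, and the dimmer Hr probe lay at 0.56. The 5 nearest genes were Clec2e, a C-type lectin (0.35), Cldn1, claudin 1 of tight junctions (0.36), Ankrd23, an ankyrin repeat protein (0.41), Nudt18 (0.41) and Gipc2, a PDZ domain protein (0.41). They necessarily share the size and direction of the Hr difference, with differences from 1.59 to 2.12 log2 units. For Clec2e this held for the brighter probe alone, since the other gave -0.14.

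The distance was taken over every array, so the pattern within each group also entered the choice of the 5 nearest genes. The order of arrays is therefore given as a description, and its share among all genes was not counted. Within the groups the likeness was partial. In 4 of these 5 genes, Clec2e, Cldn1, Ankrd23 and Nudt18, metformin replicate 1 was the lowest metformin array, as in Hr, while in Gipc2 metformin replicate 4 was. Among the controls, replicate 3 was the lowest for Hr, Cldn1 and Gipc2 but the highest for Ankrd23 and Nudt18. Klf9 stood at rank 1303 of the 10943 other genes, with a distance of 0.99.

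**Figure D4:**
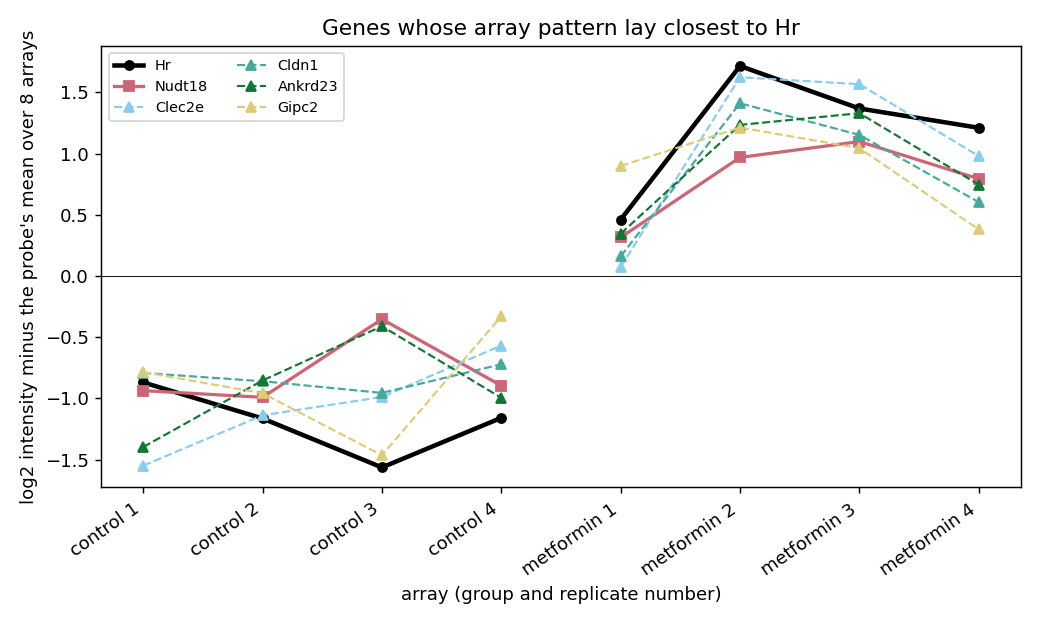
Log2 intensity minus the probe's mean over the 8 arrays (vertical axis) for the brighter Hr probe, Nudt18 and the other 4 nearest genes, by array (horizontal axis). All 6 lie below 0 in the control and above 0 in the metformin arrays, while control replicate 3 is low for Hr and high for Nudt18 and Ankrd23.

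Markers of other liver cells were set beside the Hr difference. Of the sinusoidal endothelial markers, 8 of 8 had higher values with metformin, where 51.2% of all genes did (median change 0.51, beside 0.01). In limma 0 passed, with 2 at an unadjusted p under 0.05. With the replicate number as a block 3 of the 8 passed, where 562 of all 16304 probes were higher and 544 lower in that fit. The mean level of the 8 markers was 6.07 to 7.10 log2 units over the control arrays and 6.16 to 7.75 over the metformin arrays. Lyve1 had a change of 1.28 ± 0.44 (limma adjusted p = 0.114, or 0.0450 in the block fit), and Tek, an endothelial receptor kinase, one of 0.85 ± 0.28 (limma adjusted p = 0.102, or 0.0444 with the block). Fcgr2b, an Fc receptor gene, had one of 0.61 ± 0.41 (limma adjusted p = 0.413, or 0.0488 with the block). The changes of its 3 probes ran from -0.12 to 0.66. Kdr lay near the lower end of the scale in both groups, at 4.48 and 4.52.

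Of the 6 biliary markers listed, 3 were measured. All 3 had higher values (median 0.91), and 0 passed in limma, with 2 at an unadjusted p under 0.05. Krt7 read 6.63 and 7.21 in metformin replicates 2 and 4. In metformin replicates 1 and 3 it read 4.85 and 4.87, within the control range of 4.44 to 5.08. Their mean level was 6.51 to 7.05 in control and 6.88 to 8.26 in metformin arrays, and Krt19 passed with the replicate block (limma adjusted p = 0.0205, or 0.263 without). Kupffer cell markers had 1 of 5 higher (median -0.12), with mean levels of 5.07 to 6.36 in control and 5.19 to 6.13 in metformin arrays, and Clec4f and Timd4 lay near the lower end of the scale. Stellate cell and fibroblast markers had 5 of 7 higher (median 0.10), with mean levels of 6.49 to 7.07 and 6.48 to 7.03. In limma 0 of the 5 and 0 of the 7 passed, with 0 and 1 at an unadjusted p under 0.05. The part of these cells in the Hr difference was not tested. In such bulk samples more cells of a type and more RNA per cell cannot be told apart.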

How the data were processed

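The authors deposited log2 intensities for 16304 probes on 8 arrays, 4 a group, with 0 missing values. The submitters' processing notes list R 3.2.3 and limma 3.26.9 without saying for which step. How background and normalization were handled, and whether probes were filtered, is not given in the sources used here. Array medians differed by 0.00080 log2 units, so the values were used as deposited. The number of arrays limits the precision.

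Of the probes, 15301 carried 1 gene symbol in the platform annotation and 0 carried several, while 1003 are unnamed here. The symbols were updated through Entrez numbers in the RefSeq table of GRCm38.p6 (15294 probes matched). Metformin minus control was fitted to all probes with limma 3.58.1 (lmFit, eBayes) in R 4.3.3, and two-sided p-values were adjusted over all probes by the Benjamini-Hochberg method. Genes of lists and neighbours were represented by their brightest probe over the 8 arrays. The fit was run on simulated data with independent noise on each array. That setting lacks the correlation of same-numbered arrays given below, so it cannot judge the effect of that correlation.

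The members, lists and tests were chosen with earlier results of these data known. Named were all member probes, the neighbours described, the 5 genes most like Hr, the measured Hr relatives, and of each list up to 4 members past the threshold with the smallest adjusted p, or the 2 with the smallest p where none passed. Other genes were named after their values were seen: G6pc, Mt1, Klf12, Rxra, Rxrb, Rxrg, Scarb1 and the markers.

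Deviations from the group means of same-numbered control and metformin arrays correlated at 0.27, 0.25, 0.13 and 0.20 over all probes, all above 0.1, which meets the bar set here for pairing. Differently numbered arrays correlated at -0.24 to 0.126. The highest of these, control replicate 2 with metformin replicate 4, was above 0.1 too, so the bar does not set the same-numbered pairs fully apart. The pairing rests on the data alone, since the titles give the number without a meaning. The calls come from the fit without a term for the number, and the block with it is an alternative, given where it changed a call. Further alternatives were quantile normalization, an offset of 16 on the linear scale, leaving out the lowest 25% of probes, 1 or the mean probe per gene, array weights, a trended robust variance and leaving out each array.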

Additional observations from a re-analysis of the deposited data

Results flagged for a closer look

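Among 96 groups of 4 arrays, of 48 probes, 4 had a single array far from the other 3 by Dixon's criterion. Chance gives about 1 in 20. The 48 were the probes of the members, the measured neighbours, the 5 genes most like Hr and the list genes named by rule. The markers and the genes named after their values were seen were not screened. Nudt18, the neighbour of Hr, read 9.99 log2 units in control replicate 3, against 9.35 to 9.45 in the other controls. Kdm3a, a relative of Hr, read 8.64 in control replicate 4, against 8.16 to 8.19 in the others. Jmjd1c, another relative, read 5.77 in metformin replicate 3, against 4.94 to 5.004. Ints4, a neighbour of Thrsp, read 8.98 in metformin replicate 1, against 8.56 to 8.60.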

How the results depend on the processing

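Both Hr probes were higher with metformin under every alternative run. The change was 1.82 log2 units with the mean of the Hr probes, and 0.86 for the dimmer probe with the offset of 16. Leaving out 1 array gave 2.20 to 2.62 for the brighter and 1.13 to 1.38 for the dimmer probe. Thrb and the dimmer Dio1 probe stayed lower and Klf9 higher throughout, whereas Thra, Thrsp and the brighter Dio1 probe changed sign in some fits without 1 array, and the brighter Dio1 probe also with the mean of its probes and with quantile normalization. Leaving out the lowest 25% of probes removed Thra, Thrb and the dimmer Dio1 probe.

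Over all probes 443 were higher and 477 lower at the threshold. Array weights gave 802 and 862. The fits without 1 array, which hold fewer samples, gave 69 to 521 higher and 107 to 565 lower, and the counts fell by more than 1.5 times without control replicate 2 (159 and 165), 3 (134 and 148) or 4 (193 and 187), or metformin replicate 2 (82 and 107) or 3 (69 and 114). With the replicate block 0 coregulators fell, 0 response genes rose, 1 lipogenic gene rose (Scd1) and 1 Kruppel-like factor fell (Klf5). Klf5 was also the 1 that fell with the trended robust variance, where 2 glucocorticoid-linked genes rose (Tsc22d3 and Mt1). With array weights 1 Kruppel-like factor rose (Klf12). Without 1 array, 0 to 1 coregulators fell, 0 to 2 response genes rose and 0 to 1 glucocorticoid-linked genes rose. The block changed no other call of the genes named, apart from those given beside them. The cause of these differences was not tested. Signal over background is unknown, which limits the Thra, Thrb and Dio1 probes.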
